A study of Rattus norvegicus with 2 samples.

Results

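The genes described here are those of small nucleolar RNAs (Snord and Snora), small Cajal body RNAs (Scarna), small nuclear RNAs (Rnu) and the 5S ribosomal RNA (Rn5s) that had a probe set of their own on the array. They were chosen by symbol, as the only gene symbol that the platform annotation gives to a probe set, and 12 of 22093 genes qualified, on 13 of 68842 probe sets. The group was proposed after Rn5s, Snord22 and Snora30 had been seen among the lowest ratios of the study, so their low ratios, and those of the other members from the same pair of arrays, are a description and support nothing. The samples were whole kidneys of male Dahl salt-sensitive (Dahl-S) rats, obtained at 3 weeks of age. The DSH+2.5%SF pool held RNA of 3 rats fed chow with 8% NaCl for 4 weeks and, from 1 week after its start, sucroferric oxyhydroxide, an iron-based phosphate binder, at 25 mg per g of chow. The DSH pool held RNA of 3 rats on the same salt load without the binder, and dietary phosphorus was 0.3% in both groups. The sample labels name the pools as 2.5%SF and control, with the titles DS+2.5%SF and DS, and the diets come from the paper. That the control pool is the DSH group is taken from the paper, whose arrays compared DSH with DSH+2.5%SF. Each pool was hybridized to 1 array, so no difference below has a replicate check, and no p-value is given.

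Small nucleolar RNAs sit in the nucleolus, where ribosomes are made. Those of the box C/D type guide the methylation of ribosomal RNA, and those of the box H/ACA type guide its pseudouridylation. Cajal body RNAs do the same for the small nuclear RNAs of the spliceosome. In mammals most of them lie in introns of other genes, often genes of ribosomal proteins or noncoding host genes, and are released when the intron is trimmed. The 5S RNA is part of the large ribosomal subunit and is made by RNA polymerase III, apart from the other ribosomal RNAs. Some of these short RNAs also yield microRNA-sized fragments.

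What each symbol stands for on this array had limits that bear on every value below. RefSeq (assembly GRCr8) holds a gene under each of the 12 symbols. It classes 4 of them, Snora58, Snora36c, Scarna3 and Scarna15, as microRNA genes with the older names Mir3068, Mir664-1, Mir1843 and Mir1839. For these 4 the entry covers only the hairpin, 59 to 90 bases long. Which part of the small RNA the hairpin is cannot be told here, as no longer sequence was used. The hairpins run 5′ to 3′ below, with the stretches that RefSeq lists as mature microRNAs in capitals.
Snora58 (Mir3068, GRCr8 chr6:112811875-112811950, minus strand): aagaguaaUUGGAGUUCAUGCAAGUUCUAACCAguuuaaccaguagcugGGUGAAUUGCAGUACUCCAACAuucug
Scarna3 (Mir1843, GRCr8 chr6:104955347-104955436, minus strand): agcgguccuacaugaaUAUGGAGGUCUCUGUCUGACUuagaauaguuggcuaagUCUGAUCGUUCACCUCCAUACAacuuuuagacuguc
Scarna15 (Mir1839, GRCr8 chr1:144893856-144893919, plus strand): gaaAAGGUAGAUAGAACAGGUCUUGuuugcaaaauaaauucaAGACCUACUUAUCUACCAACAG
Snora36c (Mir664-1, GRCr8 chr18:48150366-48150424, plus strand): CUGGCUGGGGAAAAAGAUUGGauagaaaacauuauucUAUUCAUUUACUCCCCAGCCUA
Each of the 4 hairpins carries a mature stretch on both arms. Snora58 lies within the span of Alkbh1 and Scarna3 within that of Dcaf5, each on the strand of the surrounding gene, and no RefSeq gene spans the other 2. Sequences of the remaining 8 members were not used here.

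The other limit concerned position. The probe set IDs carry a chromosome, which equals the RefSeq chromosome of the gene symbol for 98.5% of the 23000 probe sets that could be compared. Among the 13 probe sets of the members it did so for 7. The 6 that differed were those of Snord22 (chromosome 3 in the ID, 11 in RefSeq), Snord33 (8 and 1), Snora20 (1 and 8), Snora21 (X and 5) and both probe sets of Snora44 (2 and 7, against 5). None of these 6 has an Entrez number in the platform annotation. Many small nucleolar RNAs and the 5S RNA have near-identical copies in the genome, and which copy or copies each probe set reads was not tested.

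Most of the members were lower in DSH+2.5%SF than in DSH. Of the 12, 9 had a lower and 3 a higher intensity in DSH+2.5%SF, and the median log2 ratio of DSH+2.5%SF over DSH was −0.27, against 0 over all 22093 genes. A gene was called lower at a Z-score of at most −2.0 and a ratio of at most 0.66, and higher at a Z-score of at least 2.0 and a ratio of at least 1.5. The Z-score is the log2 ratio minus its mean over all probe sets (0.03), divided by its SD (0.34). By these criteria 5 members were lower, where 1.36% of all genes were, and 2 members were higher, where 1.09% of all genes were. Because the group was proposed for its low ratios, nothing is read from the first share. Whole kidney RNA cannot tell fewer cells of a type from less of an RNA in each cell. How much RNA as short as these members was kept at extraction was not tested, in either pool.

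**Figure D1:**
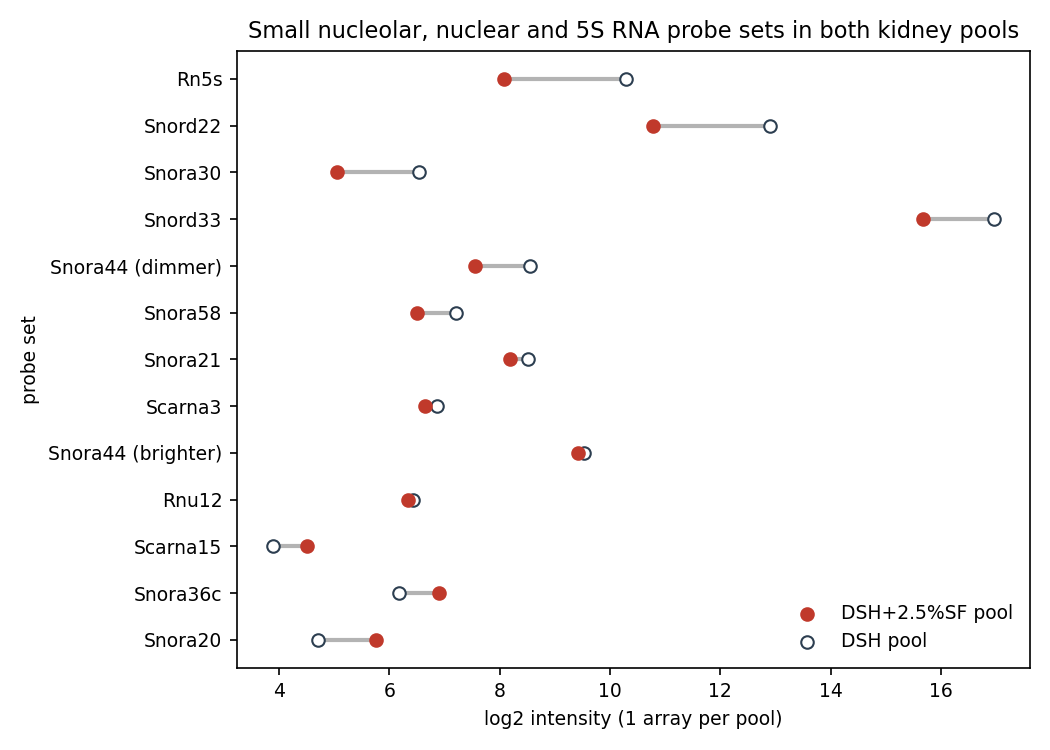
Log2 intensity (x axis) of each of the 13 probe sets (y axis, sorted by log2 ratio) in the DSH+2.5%SF pool (filled points) and the DSH pool (open points), 1 array each, joined by a line. The filled point lies left of the open one for Rn5s, Snord22, Snora30, Snord33 and 5 more genes, and right of it for Scarna15, Snora36c and Snora20.

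Rn5s, the 5S ribosomal RNA, had an intensity of 269.8 in DSH+2.5%SF and 1256 in DSH. This was 4.65-fold lower, with a Z-score of −6.64, and no other gene with its own probe set had a lower log2 ratio. Among all 68842 probe sets it ranked 21 from the lowest. Among the 1000 probe sets nearest to it in brightness, 1 had a log2 ratio as low. In both pools its intensity lay far below that of Rn5-8s, another ribosomal RNA, given further below. How much of the 5S RNA of the kidney this probe set reads was not tested. The ratio is therefore given for the probe set and not for 5S RNA as a whole.

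The 2 box C/D members were lower as well. Snord22 is known in Xenopus for a part in processing the RNA of the small ribosomal subunit, and in humans and mice it lies in the noncoding host gene Snhg1. It had an intensity of 1769 in DSH+2.5%SF and 7692 in DSH, 4.35-fold lower (Z-score −6.35). Snord33 guides ribose methylation of the same RNA in humans and lies, in RefSeq, within Rpl13a, the gene of a ribosomal protein of the large subunit. It had an intensity of 52219 in DSH+2.5%SF and 127342 in DSH, 2.44-fold lower (Z-score −3.89). Of the 1000 probe sets nearest in brightness, 4 were as low as Snord22 and 9 as low as Snord33. The median log2 ratio of the pair was −1.70. Both probe sets carry a chromosome other than that of the RefSeq gene.

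The 6 box H/ACA members went both ways, with a median log2 ratio of −0.22. By the criteria 2 were lower, 2 were higher and 2 passed in neither direction. Over all genes 1.36% were lower and 1.09% higher, and nothing is read from counts among 6 genes. Snora30, which RefSeq places within Srcap on the chromosome that the probe set ID gives, had an intensity of 33.2 in DSH+2.5%SF and 92.9 in DSH, 2.80-fold lower (Z-score −4.47). Snora58 had 90.7 in DSH+2.5%SF and 148 in DSH, 1.63-fold lower (Z-score −2.18). Snora20 had 54.0 in DSH+2.5%SF and 26.3 in DSH, 2.05-fold higher (Z-score 2.98), the highest ratio of the 12 members. Its DSH intensity lay close to the median over all probe sets of that array, 22.9. The Snora20 probe set carries a chromosome other than that of the RefSeq gene. Snora36c had 120.2 in DSH+2.5%SF and 72.7 in DSH, 1.65-fold higher (Z-score 2.05). Snora21 had 294 in DSH+2.5%SF and 366 in DSH, a log2 ratio of −0.32.

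Snora44 was the one member with more than 1 probe set, and the 2 did not give the same picture. Its brighter one, which stands for the gene in the counts, had an intensity of 683 in DSH+2.5%SF and 739 in DSH, a log2 ratio of −0.11. Its dimmer one had 189 in DSH+2.5%SF and 374 in DSH, 1.98-fold lower with a Z-score of −2.99, past the criteria. Their IDs give chromosomes 7 and 2.

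The Scarna members, which RefSeq classes as microRNA genes, and the Rnu member passed in neither direction. Scarna3 had an intensity of 99.8 in DSH+2.5%SF and 117 in DSH, a log2 ratio of −0.23. Scarna15 had 22.9 in DSH+2.5%SF and 14.9 in DSH, a log2 ratio of 0.62 with a Z-score of 1.74. Of the 12 members it alone lay below the median brightness of all probe sets. Rnu12, the gene of the U12 RNA of the minor spliceosome, had 80.7 in DSH+2.5%SF and 86.1 in DSH, a log2 ratio of −0.09. It was the only Rnu symbol with a probe set of its own, so that small nuclear RNAs as a class rest on it here.

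Around the limits, which came to a 1.57-fold lower or 1.63-fold higher intensity, Snora58 lay just inside on the lower side and Snora21 was the next outside it. On the higher side Snora36c lay just inside and Scarna15 just outside. The spread of the log2 ratios depends on brightness, and a Z-score was therefore also computed among the 1000 probe sets nearest in mean log2 intensity. With it 4 members were lower (0.887% of all genes) and 1 was higher (1.05% of all genes). Rn5s stood at −5.16, Snord22 at −4.62, Snora30 at −4.10, Snord33 at −2.83 and Snora20 at 2.80, and the calls of Snora58 (−1.84) and Snora36c (1.88) were lost. By the ratio criterion alone 5 were lower and 3 higher, with 1.83% and 1.98% of all genes. At a ratio of at most 0.5 or at least 2, 4 were lower and 1 was higher, with 0.172% and 0.303% of all genes.

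**Figure D2:**
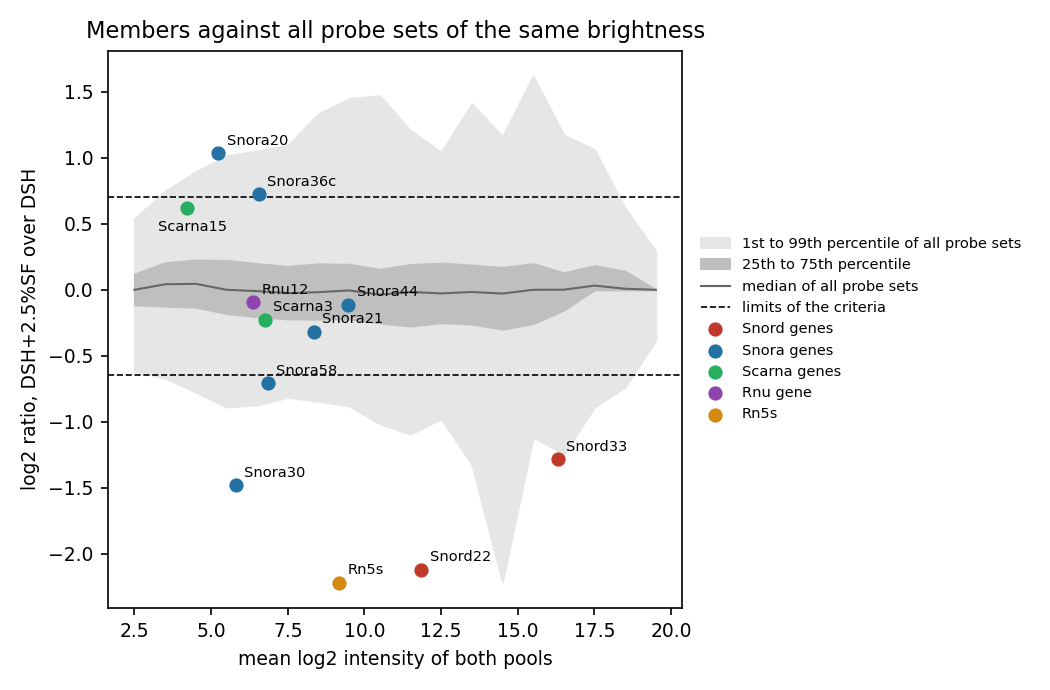
Log2 ratio of DSH+2.5%SF over DSH (y axis) against the mean log2 intensity of both pools (x axis) for the 12 members (points, colored by RNA class), 1 array per pool. Shaded bands give percentiles over all 68842 probe sets in bins of brightness, and dashed lines the limits of the criteria. Rn5s, Snord22, Snora30 and, by a small margin, Snord33 lie below the band that holds the 1st to 99th percentile, and Snora20 lies just above its upper edge.

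The members that RefSeq classes as microRNA genes and the others were set side by side, a division made after the values were seen. The 4 microRNA genes had log2 ratios from −0.71 to 0.72 with a median of 0.20, and 1 was lower and 1 higher by the criteria. The other 8 had log2 ratios from −2.22 to 1.04 with a median of −0.80, and 4 were lower and 1 higher. Over all genes 1.36% were lower and 1.09% higher. Rn5s, Snord22 and Snora30, seen to be low before the group was proposed, are all among these 8. All 4 members that were also lower by the Z-score among probe sets of similar brightness belong to these 8. The difference between the 2 sets was not tested. By position, also seen first, the 7 members on their RefSeq chromosome had a median log2 ratio of −0.23, with 3 lower and 1 higher. The 5 on another chromosome had a median of −0.32, with 2 lower and 1 higher. Nothing is read from the counts of either split.

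Mature sequences that share a seed, the bases 2 to 8 through which a microRNA pairs with its targets, link Scarna3 and Snora36c to genes outside the group. The 3′ arm of Scarna3 and that of Mir1843b share the seed, here in capitals. After it they differ only in an a against a c and in a final a that Mir1843b lacks.
rno-miR-1843a-3p (Scarna3): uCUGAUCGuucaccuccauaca
rno-miR-1843b-3p (Mir1843b): uCUGAUCGuuccccuccauac
Mir1843b had an intensity of 350 in DSH+2.5%SF and 159 in DSH, 2.20-fold higher (Z-score 3.26), whereas Scarna3 had the log2 ratio of −0.23 given above. Mir664-2 has the same 3′ mature sequence as Snora36c and the same seed on the 5′ arm.
rno-miR-664-3p (Snora36c and Mir664-2): uAUUCAUUuacuccccagccua
rno-miR-664-1-5p (Snora36c): cUGGCUGGggaaaaagauugg
rno-miR-664-2-5p (Mir664-2): cUGGCUGGggaaaaugauugg
Mir664-2 had 161 in DSH+2.5%SF and 103 in DSH, a log2 ratio of 0.64 (Z-score 1.80) beside 0.72 for Snora36c. Whether the probe sets tell such close copies apart, or a precursor from its mature form, was not tested. The remaining 5 mature sequences of the 4 members share their seed with none of the 724 mature rat sequences in the RefSeq table. Over the 382 genes with Mir symbols, taken as the other class of short RNA genes on the array, the median log2 ratio was 0.07. The symbols also took in Mir9-3hg and Mirlet7f-1os, by their names a host gene and an opposite-strand transcript. By the criteria 7 of the 382 (1.83%) were lower and 22 (5.76%) higher, against 1.36% and 1.09% of all genes.

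None of the 8 genes whose RefSeq span holds a member passed the criteria, and each had a log2 ratio closer to 0 than that of its member. As only 1.36% of all genes were lower and 1.09% higher, few of any 8 genes would pass. The group was proposed for low ratios, so nothing is read from its larger ratios beside these genes. Rpl13a, around Snord33 in RefSeq, had an intensity of 1644 in DSH+2.5%SF and 2075 in DSH, a log2 ratio of −0.34, beside −1.29 for Snord33. Srcap, which encodes a chromatin remodeler, had a log2 ratio of −0.08, beside −1.48 for Snora30. Rnf111, around the RefSeq gene of Snora20, had a log2 ratio of 0.27, beside 1.04. Alkbh1 had 0.06 and Dcaf5 0.15, where Snora58 had −0.71 and Scarna3 −0.23. Tardbp, Cdk5rap2 and the noncoding LOC102550021, around the RefSeq genes of Snora21, Snora44 and Snord22, had log2 ratios of −0.13, −0.06 and −0.03. For 5 of the 8 the member's probe set carries another chromosome, and strands were known only for Alkbh1 and Dcaf5 with their members. Of 15 noncoding host genes of small nucleolar RNAs 4 were measured, none passed, and all 4 were below 0. Gas5, the host of a cluster of box C/D RNAs, had 302 in DSH+2.5%SF and 368 in DSH, a log2 ratio of −0.28, and Snhg4, Snhg8 and Snhg11 had −0.40, −0.30 and −0.23.

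None of the genes for the proteins that bind, build or make these RNAs passed the criteria. Over the 11 lists, 143 of 148 genes were measured, and the median log2 ratio was −0.10. None was lower or higher, where 1.36% of all genes were lower and 1.09% higher. All 4 core proteins of box C/D particles were measured, among them Nop58 at 813 in DSH+2.5%SF and 776 in DSH. Nop56 had 502 in DSH+2.5%SF and 610 in DSH, and Fbl, the methyltransferase fibrillarin, had 382 in DSH+2.5%SF and 409 in DSH. Their median log2 ratio was −0.12. The 4 core proteins of box H/ACA particles had a median of −0.17. Nhp2 had 63.8 in DSH+2.5%SF and 89.0 in DSH, a log2 ratio of −0.48, and Dkc1, the pseudouridine synthase dyskerin, had −0.21. The 11 assembly factors had a median of −0.08, and Naf1, which helps to build box H/ACA particles, had the highest log2 ratio among them at 0.50.

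None of the measured genes around the 5S RNA passed the criteria either, where 1.36% of all genes were lower and 1.09% higher. At such shares few genes of lists this short would pass. Gtf3a, which encodes the factor that starts transcription of 5S genes, had an intensity of 233 in DSH+2.5%SF and 346 in DSH, a log2 ratio of −0.57 and the lowest of the 20 measured genes of RNA polymerase III and its factors. Gtf3c4, a subunit of another of these factors, had the highest at 0.58, and the list had a median of −0.03. Rpl5 and Rpl11, whose proteins bind 5S RNA before it joins the ribosome, had log2 ratios of −0.08 and −0.33. Ssb, the La protein that binds the ends of new RNA polymerase III transcripts, had 7602 in DSH+2.5%SF and 6128 in DSH, a log2 ratio of 0.31. The 15 measured Sm and Lsm genes, whose proteins form the ring on small nuclear RNAs, had a median of −0.11, and the 18 genes of proteins particular to single small nuclear particles had −0.13. The SMN complex (9 genes, median 0), the genes of small nuclear RNA transcription and 3′ end processing (25 genes, −0.11), the exosome and trimming enzymes (15 genes, −0.08) and RNA polymerase I with nucleolar genes (14 genes, −0.15) gave the same range.

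**Figure D3:**
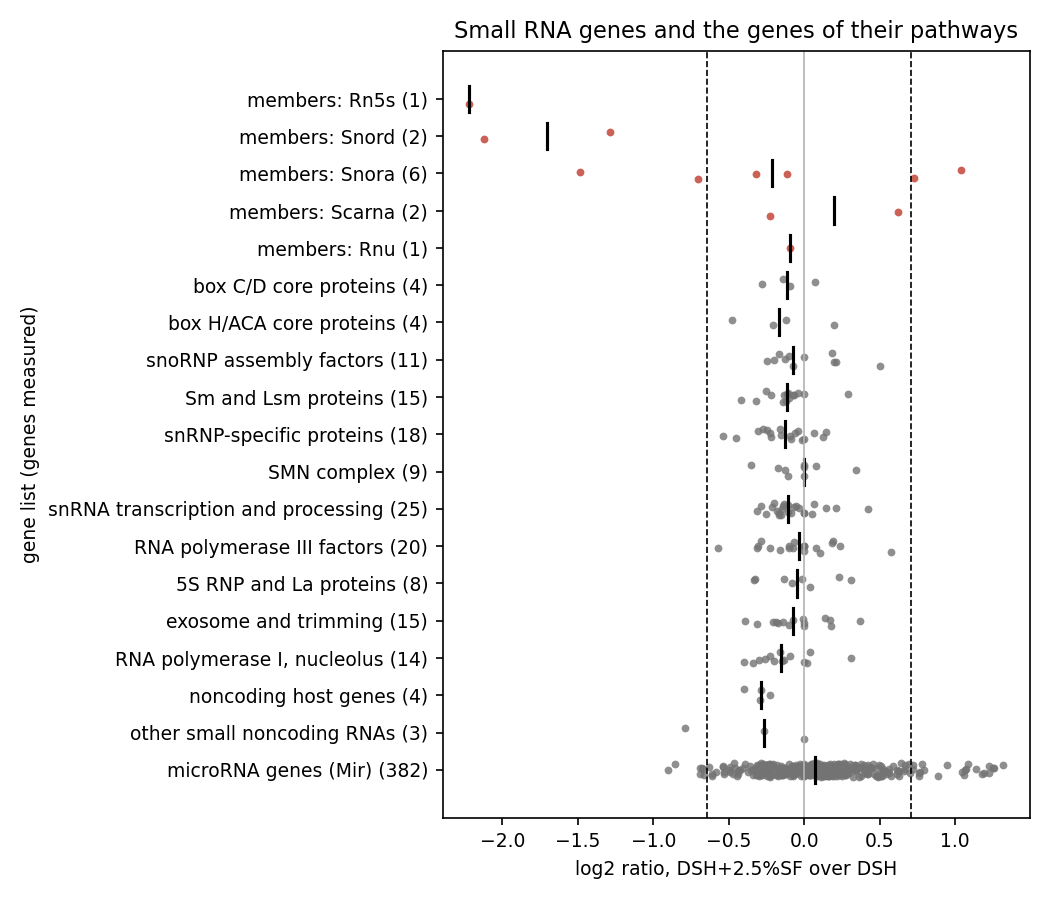
Log2 ratio of DSH+2.5%SF over DSH (x axis) for each gene (points) of the members by class and of the lists of related genes (y axis, number measured in brackets), 1 array per pool. Black bars are medians and dashed lines the limits of the criteria. Points beyond the limits are members, 1 gene among the other small noncoding RNAs (Rpph1) and microRNA genes.

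Other abundant short noncoding RNAs were measured on the same arrays. Rpph1, named for the RNA of RNase P and listed in RefSeq with the older name Rmrp of RNase MRP, had an intensity of 221410 in DSH+2.5%SF and 382280 in DSH, 1.73-fold lower (Z-score −2.42). Its dimmer probe set, whose ID gives chromosome 14 where RefSeq has 15, was 2.37-fold lower (10252 in DSH+2.5%SF and 24343 in DSH), and both calls held with the Z-score among probe sets of similar brightness. Rn5-8s, the 5.8S ribosomal RNA, was looked up after its value was seen. It had 78917 in DSH+2.5%SF and 112576 in DSH, a log2 ratio of −0.51 that did not pass. The Rn5s probe set lay far below it in both pools, at 269.8 in DSH+2.5%SF and 1256 in DSH. Rn7sl1, the RNA of the signal recognition particle, was listed at 999966 in both pools. It was the highest value of both arrays, and why the 2 values are equal was not tested. Terc, the telomerase RNA, had a log2 ratio of −0.27 and was dim.

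The labelled tissue was present in both pools, with Umod, the uromodulin gene of the thick ascending limb, listed at 469762 in each and Lrp2, the megalin gene of the proximal tubule, at 172864 in DSH+2.5%SF and 181082 in DSH. None of 7 measured kidney segment markers passed the criteria, and their mean log2 intensity was 14.1 in DSH+2.5%SF and 14.3 in DSH. The 8 blood and immune cell markers had a median log2 ratio of −0.04 and a mean log2 intensity of 8.22 in DSH+2.5%SF and 8.44 in DSH. The globin gene Hba-a1, Alas2 of heme synthesis and the leukocyte gene Ptprc were each listed at the same intensity in both pools. Slc4a1, Cd3e and Cd68 had log2 ratios of −0.47, −0.08 and 0.11. Equal values in both pools, as for Umod and Hba-a1, were listed for 2018 of all 22093 genes, and why was not tested. By the criteria 2 of the 8 were lower, Hbb and Cd79a, with log2 ratios of −0.70 and −0.66, where 1.36% of all genes were. The paper also lists Hbb, with Hbb-b1, among the genes of pathways that were lower with the binder. None of the 8 markers was listed at 0. Neither Hbb nor Cd79a stayed past a Z-score of −2.0 when set among probe sets of similar brightness (−1.94 for Hbb and −1.73 for Cd79a). Their part in the small RNA ratios was not tested.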

How the data were processed

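Total RNA of whole kidneys was pooled from 3 rats per group and hybridized to 1 Clariom D rat array per group. The labels name TRIzol followed by a column kit for extraction, and the paper names another column kit. How well either method keeps RNA as short as the members was not tested. The deposited values are intensities on a linear scale, which the authors computed with RMA in Affymetrix Expression Console 1.4.1 per the labels, a method of background correction, quantile normalization and probe summary. The sources used here give no genome build for the array.

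Log2 was taken, and ratios and Z-scores were computed over all 68842 probe sets, with the thresholds of the paper, which does not say how its Z-score was made. A gene was represented by its brightest probe set with a single symbol in the platform annotation, and the 505 that carry more than 1 symbol stood for no gene. All 12 members matched a RefSeq gene by Entrez number or symbol, and 4 had sequences, credited to RefSeq (GRCr8). The members and the gene lists were chosen with earlier results of these data known. The rule for named genes took members past the criteria, Rn5s, Snord22, Snora30, the Rnu and Scarna members, the 10 brightest members, the 3 nearest each limit, genes whose RefSeq span holds a named member, and, of each related list, the called genes and the 2 brightest, not all of which are printed. Other genes of the lists, Rn5-8s, Mir1843b and Mir664-2 were named after their values were seen. With 1 array per group, precision cannot be estimated. No promoter window of a member was used here, so the planned motif search was not run. Alternatives were other scalings (median centring, quantile normalization, a loess trend with a span of 0.2), other criteria, other ways to pick probe sets, and filters on dim or equal values. The code for the calls was run on simulated ratios with known changes, which says nothing of the precision of the arrays. The computations ran in Python 3.11.15 with statsmodels 0.14.6 for the loess trend, pandas 2.3.3, numpy 2.4.6 and matplotlib 3.10.9.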

Additional observations from a re-analysis of the deposited data

How the results depend on the processing

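Log2 ratios of single members were recomputed under 6 alternatives (5 for Scarna15), and none changed direction. For a member with 1 probe set, averaging over probe sets and the filters on dim or equal values cannot alter the log2 ratio. Median centring shifts every log2 ratio by only 0.004. Little is therefore read from the unchanged directions. The counts of calls were recomputed under 12. Median centring, quantile normalization and subtraction of a loess trend left the counts of 5 lower and 2 higher members within 1.5 times and moved no log2 ratio by as much as the SD over all probe sets, 0.34. The count of lower members ranged from 3 to 6. It was 3 when members whose probe set and RefSeq gene differ in chromosome were left out, an alternative chosen after seeing the data. The count of higher members ranged from 1 to 3. It was 1 with the Z-score among probe sets of similar brightness, with a 2.0-fold limit alone, with dim probe sets left out, with probe sets of equal intensity left out, and, chosen after seeing the data, with RefSeq microRNA genes or members on another chromosome left out. Without the RefSeq microRNA genes the median log2 ratio of the members was −0.80. With dim probe sets left out the median of the Scarna members, then Scarna3 alone, was −0.23. With the mean of its probe sets Snora44 had a log2 ratio of −0.55. No paired analysis was possible because each group has 1 array, and for the same reason no replicate could be left out.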

Other observations

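Other genes on the arrays were classed by their RefSeq biotype. Long noncoding RNA genes (1507 measured) had a median log2 ratio of 0.05, with 7 lower and 25 higher by the criteria, and protein-coding genes (19137 measured) had a median of 0, with 259 lower and 178 higher. Pseudogenes (857 measured) had a median of −0.04, with 21 lower and 12 higher. Of the 44 genes with Mir symbols that reached the 75th percentile of brightness, none was lower and 5 were higher, with a median log2 ratio of 0.16. Of the 8 members that did, 4 were lower and 1 was higher, with a median of −0.51, and of all 8031 such genes 179 were lower and 116 were higher, with a median of −0.06. These classes were compared after the values of the members were known, and no difference between them was tested.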
